A study of Arabidopsis thaliana with 134 samples.

Results

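Aux/IAA repressors, auxin-conjugating GH3 enzymes and IAGLU were followed in whole Arabidopsis thaliana seedlings kept in the dark or given a longer day. IAGLU is a gene named as an auxin glucosyltransferase. The set was chosen by gene identity and held 38 of the 28775 genes in the deposited table, namely 29 Aux/IAA genes, 8 GH3 genes and IAGLU (AT4G15550). Libraries came from the accessions Tnz-1 and Ws-2 and from 65 of their recombinant inbred lines, self-fertilised descendants of their cross that are each nearly homozygous for a mix of both genomes. All seedlings grew on MS medium with 3% sucrose at 22 °C with 8 h of light per day, and were harvested whole at 12 days at zeitgeber time (ZT) 10 h. All samples shared 4 days of stratification and 50 seeds per cluster. The dark group had been without light since ZT 8 h, and the light group had stayed in the light for those 2 h. A line or parent gave 1 library per condition, so that the study had 65 dark and 65 light libraries of lines, 2 of Tnz-1 and 2 of Ws-2. The lines carry the letters WT and a number in the labels, and they were read as recombinant inbred lines because the series text names no other plants. Dark and light seedlings stood in different cabinets, so light and cabinet cannot be told apart wherever the 2 conditions are compared.

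Auxin acts through the F-box receptors of the TIR1 and AFB family, which bind Aux/IAA proteins when auxin is present and send them to the proteasome. Aux/IAA proteins hold back the auxin response factors (ARFs), the transcription factors that switch on auxin-responsive genes, and many Aux/IAA and GH3 genes are themselves such targets, so their transcripts are widely used as a readout of auxin response. GH3 enzymes of this group join indole-3-acetic acid (IAA) to amino acids, which lowers the pool of free auxin. IAGLU is named for joining IAA to glucose, and what its enzyme acts on was not measured here. In seedlings the pathway is best known for its part in growth of the hypocotyl and petioles in shade or darkness and in the branching of roots.

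The unit was TPM, a transcript abundance scaled for gene length and for library total, so levels of different genes may be set side by side. TPM keeps no read total, and the depth behind each value is unknown. Genes listed at 0 numbered 8017 to 10268 in the dark libraries of the lines and 7999 to 10459 in the light libraries. Summed TPM of 4 leaf markers was 23899 at the lowest and 35803 at the highest in the dark, and 23767 and 42636 in the light. Summed TPM of 6 root hair markers had a median of 71.9 in the dark and 46.7 in the light, with a range of 7.52 to 211 and of 9.27 to 173. Transcripts of 5 seed storage markers varied most, from 1.76 to 14769 TPM in the dark lines and from 0.88 to 7687 TPM in the light lines, and the Tnz-1 libraries held 13093 (dark) and 11044 (light) against 373 and 218 in Ws-2. In whole seedlings, fewer cells of a type and less RNA per cell cannot be told apart, and the part of these markers in the results was not tested beyond leaving out the 5 lines richest in seed storage transcripts, after which all 27 tested genes kept direction and call.

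After extended light, transcripts of 10 of 21 tested Aux/IAA genes and of GH3.3, GH3.5, GH3.6 and GH3.17 were lower, those of 5 Aux/IAA genes were higher, and IAGLU was 11.1-fold higher on the TPM + 1 scale. The light response was tested with limma on log2(TPM + 1) in the lines, and a gene was called at a Benjamini-Hochberg adjusted p under 0.05 over all 18111 genes whose mean reached 1 TPM. Of the 38 genes, 27 passed that filter, 6 were called higher in the light, 15 lower and 6 were not called. Of the genes called lower, GH3.2 reached the filter only through the dark group (mean 1.25 TPM in the dark and 0.858 TPM in the light), so its call follows in part from the filter and carries no weight. Calls were common in these libraries, with 36.1% of all tested genes higher and 25.5% lower. Large changes, an absolute log2 change of at least 1 as well, were rare, with 2.66% of all tested genes higher and 2.83% lower, and among the 27 they were 1 higher (IAGLU) and 5 lower (GH3.3, IAA3, IAA4, GH3.6 and IAA2). The median log2 change was -0.27 over the 27 genes, -0.22 over 21 Aux/IAA genes and -0.71 over 5 GH3 genes (GH3.2 included), against 0.05 over all tested genes. Changes on the log2(TPM + 1) scale understate those of genes with low TPM.

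**Figure D1:**
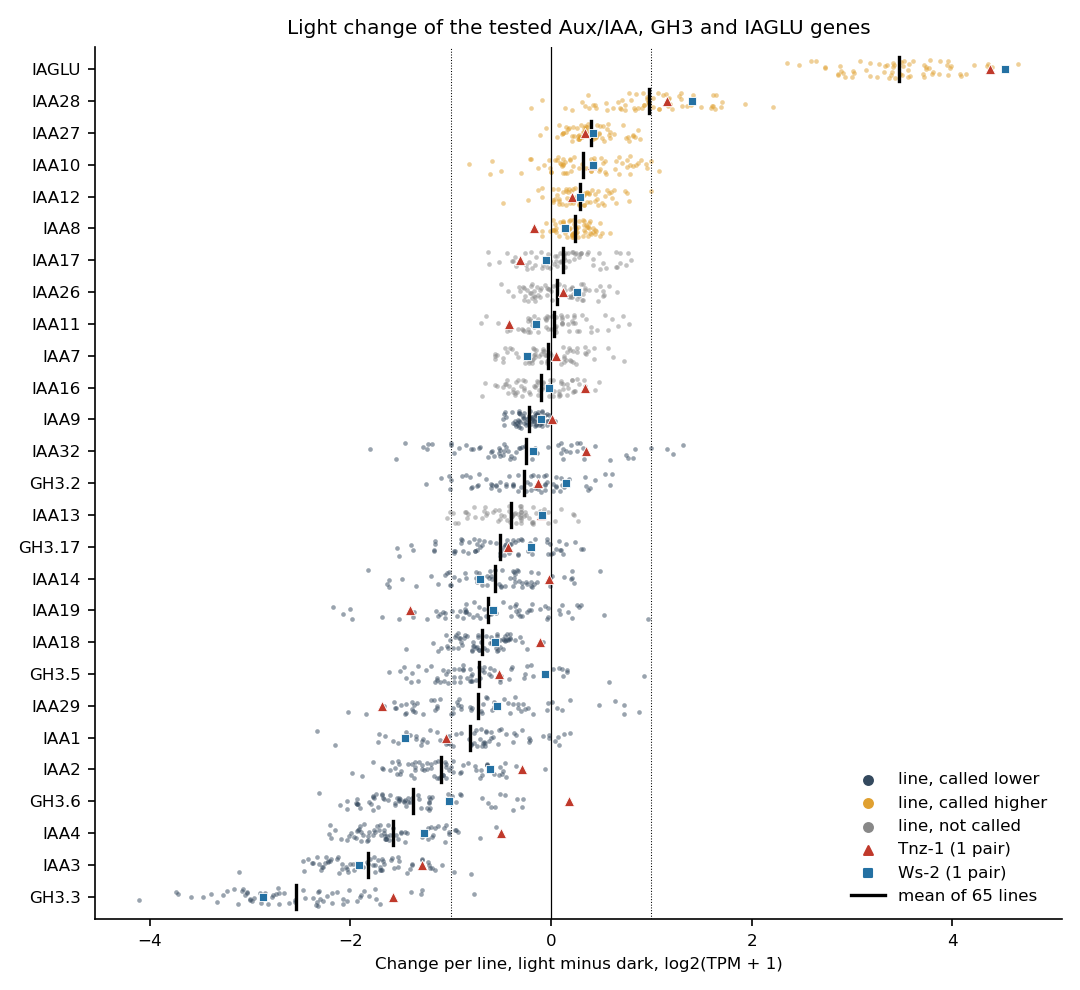
Change of each tested gene in extended light, on the log2(TPM + 1) scale (horizontal axis), with 1 dot per line, a bar at the mean of the 65 lines, a triangle for Tnz-1 and a square for Ws-2; dotted lines mark 1 log2 unit. All 65 lines lie right of 0 for IAGLU and left of 0 for GH3.3, IAA3, IAA4, GH3.6, IAA2 and IAA18, and the Tnz-1 triangle of GH3.6 lies right of 0.

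The largest decreases among the Aux/IAA genes were those of IAA3, IAA4 and IAA2. IAA3 (AT1G04240, also SHY2, a repressor whose stabilised form alters hypocotyl and root growth) had 26.3 TPM at the lowest, 86.0 at the median and 149.6 at the highest in the dark libraries, and 11.8, 24.5 and 37.3 in the light. It fell in 65 of 65 lines, by 3.55-fold on the TPM + 1 scale (log2 change -1.83, SE 0.0705, limma adjusted p 2.48e-51). IAA4 (AT5G43700), its closest relative in the family, went from 66.8, 188.5 and 312 TPM to 33.2, 60.3 and 121 TPM (log2 change -1.58, SE 0.0667, limma adjusted p 2.9e-47). IAA2 (AT3G23030) went from 89.7, 174 and 250.5 TPM to 41.95, 79.3 and 137 TPM (log2 change -1.09, SE 0.0544, limma adjusted p 3.86e-40). Each was lower in the light in all 65 lines, although the groups overlapped: 45, 42 and 44 of the 65 light libraries lay below the lowest dark library for IAA3, IAA4 and IAA2.

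The other Aux/IAA genes called lower changed by less. IAA1 (AT4G14560) had a log2 change of -0.80 and fell in 60 lines, IAA29 (AT4G32280), a gene induced in shade, -0.73 and 56 lines, and IAA18 (AT1G51950) -0.69 and all 65. IAA19 (AT3G15540, also MSG2, which acts in bending of the hypocotyl) changed by -0.63 in the mean and fell in 55 lines. IAA14 (AT4G14550, also SLR, which acts in the start of lateral roots) changed by -0.56 and fell in 58 lines. IAA9 (AT5G65670) changed by only -0.22 but fell in 64 lines, and its call was lost in 3 of 4 ranges of line numbers taken alone (limma adjusted p 0.0629, 0.0724 and 0.1). IAA14 and IAA19 each lost their call in lines 21 to 39 (limma adjusted p 0.0906 and 0.122). IAA32 (AT2G01200), with -0.25, fell in 42 lines and was called (limma adjusted p 0.00979), which was also lost in 3 of the 4 ranges. IAA19 and IAA29 were low throughout, with medians of 2.53 and 3.52 TPM in the dark and 1.30 and 1.71 TPM in the light.

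IAA28 (AT5G25890), a repressor of lateral root formation whose transcript is known not to rise with auxin, went the other way. It had 14.2, 26.95 and 43.1 TPM (lowest, median, highest) in the dark and 27.8, 53.8 and 95.1 TPM in the light. It rose in 63 lines, by 1.97-fold on the TPM + 1 scale (log2 change 0.98, SE 0.0665, limma adjusted p 2.67e-28). IAA27 (AT4G29080) rose by 0.39 log2 units and in 63 lines, IAA10 (AT1G04100) by 0.32 and in 52, IAA12 (AT1G04550, also BODENLOS, which acts in the embryo's root pole) by 0.29 and in 60, and IAA8 (AT2G22670) by 0.24 and in 61. The rise of these 4 was thus below 0.5 log2 units, and in single ranges of line numbers the call was lost in 3 of 4 for IAA8 (limma adjusted p 0.0718, 0.299 and 0.231) and in 2 of 4 for IAA10 (0.0711 and 0.516).

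The remaining 6 tested Aux/IAA genes were not called. IAA7 (AT3G23050), IAA11 (AT4G28640) and IAA26 (AT3G16500) had log2 changes of -0.03, 0.02 and 0.06, and the sign of IAA11 turned with median-of-ratios scaling. For IAA13 (AT2G33310) the log2 change was -0.40 with an SE of 0.237 (limma adjusted p 0.137), although 60 of 65 lines were lower. With the line as a replicate block its adjusted p was 1.38e-15 (limma). IAA16 (AT3G04730, -0.10) and IAA17 (AT1G04250, 0.12) likewise had adjusted p of 0.193 and 0.142 without the block and 0.00496 and 0.0122 with it (limma). Thus with pairing by line 24 of the 27 genes were called, 17 lower and 7 higher. The shares over all tested genes, 36.1% higher and 25.5% lower, belong to the fit without the block. No such share is given for the fit with it, so these counts are a description only.

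Levels of the Aux/IAA genes differed widely. IAA16 was the most abundant, with a median of 312 TPM in the dark, followed by IAA9 (246), IAA7 (209), IAA4 (188.5), IAA2 (174) and IAA8 (170 TPM), whose ranges over lines overlapped. In the light the order was IAA16 (278), IAA9 (207), IAA8 (204) and IAA7 (199 TPM), with IAA2 and IAA4 at 79.3 and 60.3 TPM. The summed TPM of all 29 Aux/IAA genes went from 1210 (lowest), 1655 (median) and 1916 (highest) in the dark to 980.2, 1331 and 1721 in the light, and was lower in the light in 62 of 65 lines. In the parents that sum was 1241 (dark) and 1200.2 (light) in Tnz-1, and 1426 and 1251 in Ws-2.

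A shared sequence ties most of the family to the receptor. The degron of Aux/IAA proteins, the short stretch that the receptor and auxin hold together, has a 5-residue core, and a match to the coding bases of that core was found in 23 of the 29 genes in the RefSeq annotation of TAIR10.1. IAA20, IAA30, IAA31, IAA32, IAA33 and IAA34 had none by the pattern searched. The coding bases are shown for the 3 large decreases, for IAA28, which rose, and for IAA17 and IAA13. The last 2 were called only with the line as a replicate block (limma adjusted p 0.0122 and 1.38e-15). They run 5′ to 3′ on the gene's strand, with the 15 bases of the core in capitals and 6 bases on each side.
IAA3 (core at chr1:1129025-1129039, minus strand): attgttGGATGGCCACCAGTTagatct
IAA4 (core at chr5:17550749-17550763, plus strand): attgttGGATGGCCACCAGTTagatct
IAA2 (core at chr3:8181393-8181407, minus strand): atcgttGGTTGGCCACCAGTGagatct
IAA28 (core at chr5:9033821-9033835, plus strand): gtggtgGGATGGCCGCCGGTGagatca
IAA17 (core at chr1:1136947-1136961, plus strand): gttgtgGGATGGCCACCGGTGagatca
IAA13 (core at chr2:14115239-14115253, minus strand): gttgttGGATGGCCTCCTATAgggtca
The stretches of IAA3 and IAA4 were the same base for base, the only such pair among the 23. Genes with the core thus included the Aux/IAA genes that fell most and the one that rose most. They also included IAA7, IAA11 and IAA26, which were called neither with nor without the block.

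Some Aux/IAA genes lie side by side in opposite directions, in 3 pairs with no coding gene between them. IAA3 and IAA17 (chromosome 1, TAIR10.1) start 6388 bases apart and had log2 changes of -1.83 and 0.12. IAA2 and IAA7 (chromosome 3) start 12510 bases apart and had -1.09 and -0.03. IAA14 and IAA1 (chromosome 4) start 10732 bases apart and had -0.56 and -0.80. Both genes were called in the last pair and, with the line as a replicate block, also in the first (IAA17, limma adjusted p 0.0122). The difference within pairs was not tested.

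**Figure D2:**
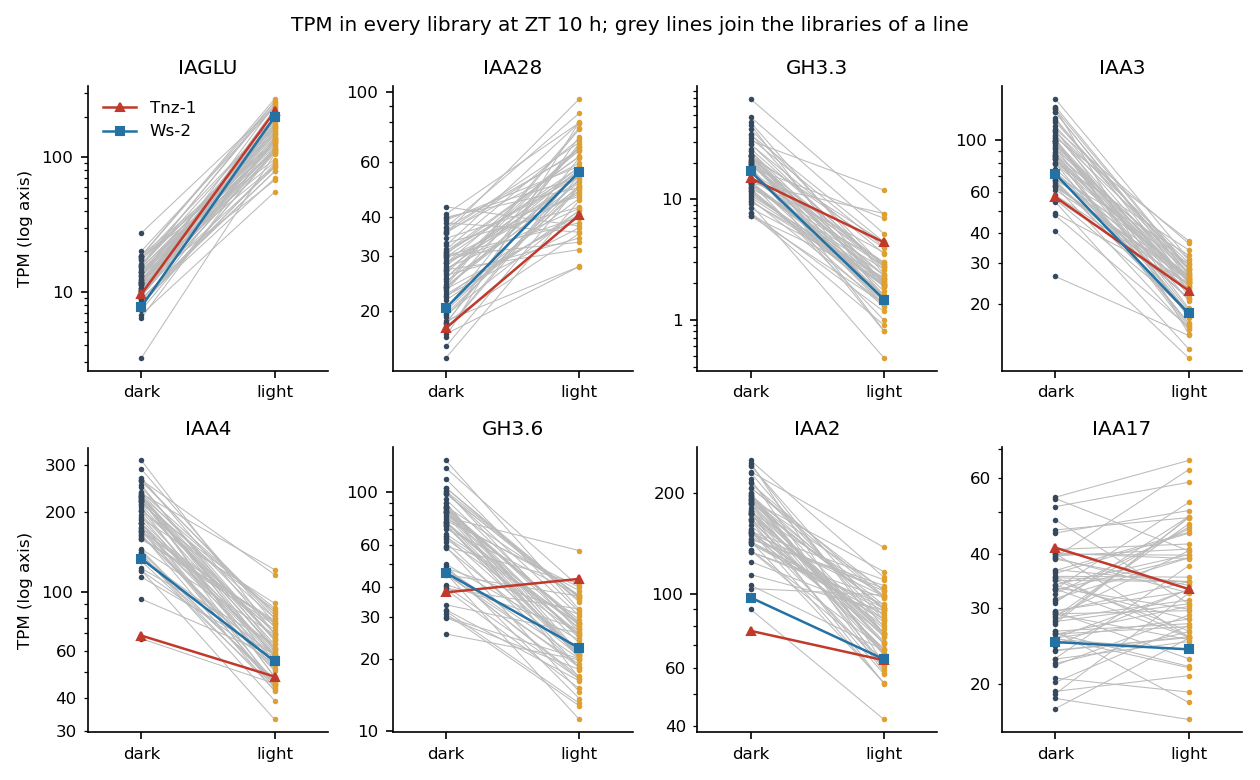
TPM (vertical log axis) in every library in the dark and in the light for IAGLU, IAA28, the 5 genes with large decreases, and IAA17, the neighbour of IAA3. IAA17 was called only with the line as a replicate block. Each grey line joins the libraries of 1 line, and red triangles and blue squares mark Tnz-1 and Ws-2; the 2 conditions do not overlap for IAGLU, and grey lines of IAA17 go both ways.

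Besides GH3.2, which reached the filter only through the dark group, 4 GH3 genes were tested, and all 4 were called lower. GH3.3 (AT2G23170), a strongly auxin-induced conjugating enzyme, had 7.32, 18.5 and 68.5 TPM (lowest, median, highest) in the dark and 0.48, 2.00 and 11.9 TPM in the light. It fell in 65 of 65 lines by 5.81-fold on the TPM + 1 scale (log2 change -2.54, SE 0.108, limma adjusted p 6.6e-47). With a pseudocount of 0.1 its log2 change was -2.98. GH3.6 (AT5G54510, also DFL1, whose overexpression gives dwarf plants in the light) went from 25.4, 72.9 and 135 TPM to 11.2, 25.1 and 56.7 TPM, in 65 of 65 lines (log2 change -1.38, SE 0.0898, limma adjusted p 9.83e-30). Light and dark libraries overlapped for both, at the low end of the dark and the high end of the light.

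GH3.5 (AT4G27260, also WES1) had a log2 change of -0.71 and fell in 57 lines, but in lines 40 to 57 alone the change was -0.19 and not called (limma adjusted p 0.35). GH3.17 (AT1G28130), which joins IAA to glutamate, had -0.51 and fell in 55 lines. GH3.2 (AT4G37390, also YDK1) had a median of 1.13 TPM in the dark and 0.72 TPM in the light, a difference of -0.27 log2 units that is given as a description only. GH3.5 and GH3.6 share 84.1% of their coding bases over their aligned length, and GH3.2 and GH3.4 90.0%, so how the authors' quantification split shared reads makes these values less certain. The same holds for IAA1 and IAA2 (81.5%), IAA7 and IAA14 (81.7%) and IAA32 and IAA34 (81.4%). Summed over the 8 GH3 genes, TPM went from 103 (lowest), 182 (median) and 291 (highest) in the dark to 49.5, 88.4 and 139 in the light, lower in 64 of 65 lines.

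The dark and light libraries of IAGLU did not overlap, and how many of all genes separate in this way was not counted. It had 3.22, 11.6 and 27.3 TPM (lowest, median, highest) in the dark and 55.1, 136 and 271 TPM in the light. The mean rise was 11.1-fold on the TPM + 1 scale (log2 change 3.47, SE 0.0827, limma adjusted p 1.41e-74), and single lines ranged from 2.35 to 4.65 log2 units. IAGLU thus went from a level below that of GH3.3 to one above that of every GH3 gene measured, by median TPM. Its mean change was 3.14 (SD 0.39, n = 17) in lines 1 to 19, 3.25 (SD 0.47, n = 16) in lines 21 to 39, 3.83 (SD 0.45, n = 16) in lines 40 to 57 and 3.68 (SD 0.36, n = 16) in lines 58 to 78. These number ranges are not labelled as batches and were used only to see whether results hold within them.

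Bases upstream of the gene starts were searched for letters linked to auxin and light. ARFs are known to bind TGTCTC and TGTCGG, and PIF and other light-related factors the G-box CACGTG. On either strand of the 250 bases before the annotated start (TAIR10.1), TGTCTC was found in 12 of the 38 genes, TGTCGG in 6, either of these in 16 and CACGTG in 5. Over 27443 such regions of all genes the shares were 10.95%, 4.16%, 14.67% and 6.49%. Among the 5 large decreases GH3.3 alone had 1 of these motifs, and IAGLU and IAA28 had none. The regions of GH3.3, of IAA19 (the gene with the most matches among those called), of IAA3 and of IAGLU are shown 5′ to 3′ on the gene's strand, with matches to the 3 motifs on either strand in capitals.
GH3.3 (chr2:9866563-9866812, minus strand): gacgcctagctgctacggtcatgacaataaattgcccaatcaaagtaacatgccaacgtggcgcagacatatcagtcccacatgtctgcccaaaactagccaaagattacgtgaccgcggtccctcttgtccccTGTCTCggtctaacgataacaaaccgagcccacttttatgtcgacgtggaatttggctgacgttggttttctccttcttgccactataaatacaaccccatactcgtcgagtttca
IAA19 (chr3:5263751-5264000, plus strand): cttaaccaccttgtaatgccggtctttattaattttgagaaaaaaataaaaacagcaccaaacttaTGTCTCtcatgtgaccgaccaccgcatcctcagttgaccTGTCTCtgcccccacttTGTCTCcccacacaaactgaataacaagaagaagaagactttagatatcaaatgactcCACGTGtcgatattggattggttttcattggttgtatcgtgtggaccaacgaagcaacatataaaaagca
IAA3 (chr1:1129690-1129939, minus strand): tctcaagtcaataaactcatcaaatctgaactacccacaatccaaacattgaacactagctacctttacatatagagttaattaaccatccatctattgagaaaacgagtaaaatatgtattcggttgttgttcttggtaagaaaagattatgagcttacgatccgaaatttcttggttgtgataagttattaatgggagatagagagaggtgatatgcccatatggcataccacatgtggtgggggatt
IAGLU (chr4:8879328-8879577, minus strand): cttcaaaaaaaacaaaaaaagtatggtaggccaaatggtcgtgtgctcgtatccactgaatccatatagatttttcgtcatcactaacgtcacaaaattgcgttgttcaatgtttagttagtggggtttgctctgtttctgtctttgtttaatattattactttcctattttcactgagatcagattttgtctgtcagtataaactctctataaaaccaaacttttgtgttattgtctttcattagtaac
IAA19 holds TGTCTC 3 times and CACGTG once, none of which overlap, and changed by -0.63 log2 units. IAA3 holds no match and changed by -1.83. A match is a description of the letters and not of binding, and a window with no match says nothing about sites elsewhere.

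The 11 genes under the filter were low in both conditions. GH3.4 (AT1G59500) was listed at 0 in every library, IAA15 (AT1G80390) in all but 10 libraries of the lines, and IAA6 (AT1G52830) in all but 5. IAA5 (AT1G15580), a strongly auxin-induced gene in other settings, had a median of 0.88 TPM in the dark and 0.40 TPM in the light and was lower in 47 lines. IAA20, IAA30, IAA31, IAA33, IAA34 and GH3.1 had medians under 1 TPM in both conditions. GH3.9 (AT2G47750), by contrast, had a mean of 0.572 ± 0.335 TPM in the dark and 1.17 ± 0.608 TPM in the light (SD, n = 65 each) and was higher in 58 lines. These 11 were not tested and are given as a description.

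The parents gave 1 library per condition and are described without a test. IAGLU went from 9.60 to 219 TPM in Tnz-1 and from 7.73 to 199.95 TPM in Ws-2, in both below the median of the lines in the dark and above it in the light. GH3.3 went from 15.04 to 4.39 TPM in Tnz-1 and from 17.1 to 1.47 TPM in Ws-2, and IAA3 from 57.2 to 22.8 and from 71.7 to 18.3 TPM. Of the 21 genes called in the lines (GH3.2 included), 17 changed in the same direction in Tnz-1 and 20 in Ws-2. The large changes had the same direction in Ws-2 for all 6 genes and in Tnz-1 for 5.

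Some Tnz-1 values lay at the edge of the range of the lines or outside it. Its IAA2 level of 77.3 TPM was below every dark line, IAA4 at 68.6 TPM was near the lowest, and GH3.6 at 37.9 TPM in the dark was 43.2 TPM in the light, against 45.8 and 22.2 TPM in Ws-2. IAA29 was 13.8 TPM in dark Tnz-1, above the highest dark line at 9.06 TPM, and 1.59 TPM in dark Ws-2. IAA29, IAA1 and IAA13 were the tested genes that differed between the parents by at least 1 log2 unit in both conditions. IAA1 had 22.1 and 10.2 TPM in Tnz-1, and Ws-2 had 9.96 and 2.99 TPM. The high seed storage transcripts of both Tnz-1 libraries stand beside these values, and their part was not tested.

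Differences between lines were large for a few of these genes. The effect of the line was judged by a moderated F-test (limma) that also fitted the treatment, and 24 of 27 genes passed an adjusted p of 0.05, against 83.9% of all tested genes. IAA2, IAA19 and IAA32 did not pass (limma adjusted p 0.101, 0.0847 and 0.262). The intraclass correlation (ICC), the share of the variance between libraries that is common to both libraries of a line, was above 0.8 in 5 of the 27 genes and in 19.9% of all tested genes. Its median was 0.44 over the 27 genes and 0.49 over all.

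IAA13, a relative of BODENLOS, had the highest ICC of the set, 0.975. Its levels were 2.85, 41.1 and 66.1 TPM (lowest, median, highest) in the dark and 2.13, 30.5 and 47.4 TPM in the light. The parents differed in the same way, with 3.97 and 3.65 TPM in Tnz-1 and 35.01 and 32.9 TPM in Ws-2 (dark and light). By the mean of its 2 log2 levels, 20 lines were nearer to Tnz-1 and the rest nearer to Ws-2, 41 lines lay above both parents, 19 between them and 5 below. A gap from 4.35 to 5.04 log2(TPM + 1) was the widest between neighbouring lines, with 22 lines below it and 43 above.

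IAA8 (ICC 0.909) had 14 lines below both parents, 35 between and 16 above. The widest gap between its neighbouring lines was 0.122 of their range, against 0.189 for IAA13. It had 82.4, 170 and 225 TPM in the dark and 97.4, 204 and 262 TPM in the light, with Tnz-1 at 147 and 130.1 TPM and Ws-2 at 190.2 and 210.0 TPM. IAA9 (ICC 0.876) ran from 176 to 355 TPM in the dark with a median of 246, and from 137 to 296 TPM in the light with a median of 207. Its parents were close, at 256 and 258 TPM in Tnz-1 and 233 and 218 TPM in Ws-2, and 32 lines lay below both and 14 above both. IAA11 (ICC 0.812) had medians of 14.1 and 14.4 TPM, with 18 lines below both parents and 32 above. IAA18 (ICC 0.807) had medians of 46.3 and 28.3 TPM, with 33 lines between the parents, 32 above both and none below. The genes that responded most to light had lower values, with an ICC of 0.409 for IAA3, 0.486 for IAA4, 0.143 for IAA2, 0.438 for GH3.3, 0.543 for GH3.6 and 0.444 for IAGLU.

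**Figure D3:**
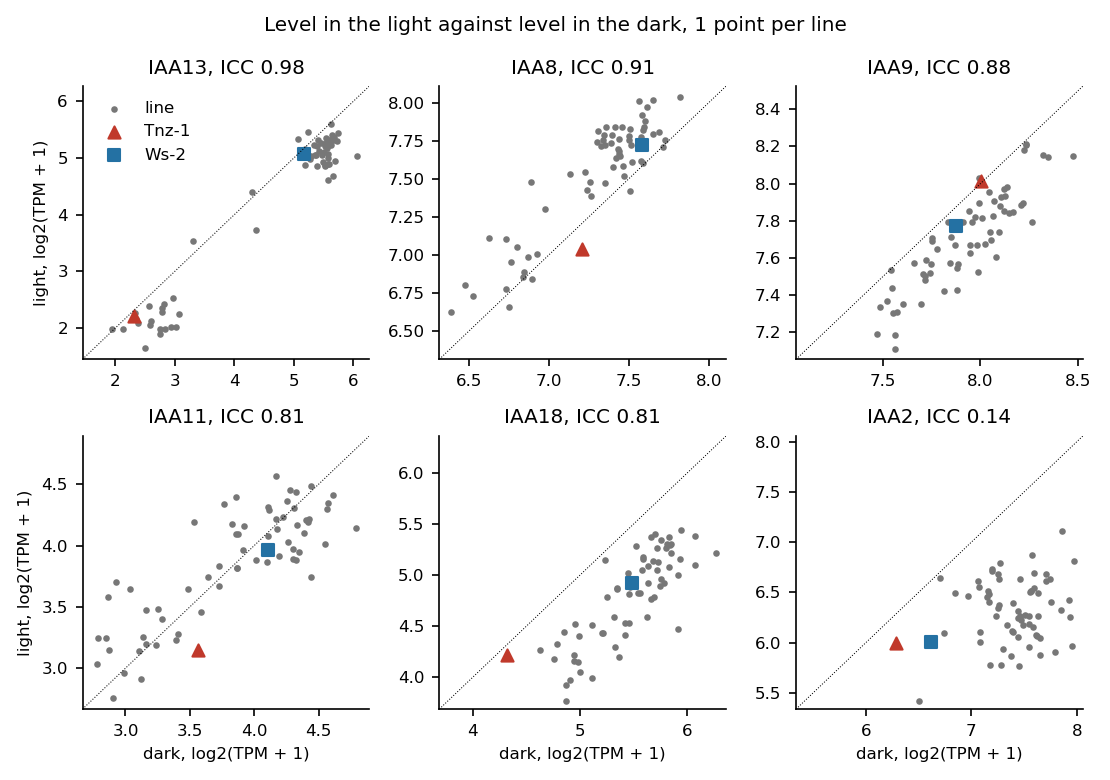
Level in the light (vertical axis) against level in the dark (horizontal axis), both log2(TPM + 1), with 1 grey dot per line and the parents as a triangle and a square, for the 5 genes with an ICC above 0.8 and for IAA2, where the line effect was not called. The dotted line marks equal levels; IAA13 shows a low and a high set of lines, with Tnz-1 in the low and Ws-2 in the high set.

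To see whether IAGLU follows the auxin-response genes from line to line, its change per line was correlated with that of every other tested gene over the 65 lines, with two-sided permutation tests of 100000 resamples and adjustment over all 18110 genes. IAGLU rises while the response genes fall, so a positive r means that lines with a larger IAGLU rise had a smaller decrease of the other gene. GH3.3 had r = 0.261 (Spearman's rho 0.298, permutation adjusted p 0.212 and 0.141) and IAA3 r = 0.175 (rho 0.157, permutation adjusted p 0.45 and 0.522). IAA4 had r = 0.253 (rho 0.28, permutation adjusted p 0.227 and 0.171), and GH3.6 r = 0.309 (rho 0.361, permutation adjusted p 0.114 and 0.0547). IAA2 had r = 0.36 (rho 0.4), with a permutation adjusted p of 0.0515 for r and 0.027 for rho. Over all 65 lines none of these 5 was negative, and by r none was called. The sign did not hold for all 5 with values centred within the 4 ranges of line numbers. There r was -0.0505 for IAA2, -0.0667 for IAA3 and -0.152 for IAA4, beside 0.133 for GH3.3 and 0.12 for GH3.6.

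Among all 26 other tested genes of the set, 2 were called, both with r above 0, against 4.32% of all genes with r above 0 and 1.29% with r below 0. IAA16 had r = 0.479 (rho 0.481, permutation adjusted p 0.00464 and 0.00693) and GH3.5 r = 0.421 (rho 0.433, permutation adjusted p 0.0212 and 0.0154). Without the 2 lines farthest from the median in IAGLU, r was 0.416 and 0.315 (permutation adjusted p 0.0551 and 0.191). With values centred within the 4 ranges of line numbers it was 0.318 and 0.178 (permutation adjusted p 0.392 and 0.716). None of the 26 was called in either setting, with 7 and 2 at an unadjusted permutation p under 0.05. Over all 18110 genes, calls were also few in these settings, 194 and 22, with 2587 and 1698 at an unadjusted permutation p under 0.05. The calls of IAA16 and GH3.5 were thus lost within the ranges, where few genes of any kind were called. Mean changes differed between ranges for both sides: IAA2 changed by -1.36, -1.34, -0.68 and -0.98 log2 units in the ranges from the lowest numbers to the highest, beside 3.14, 3.25, 3.83 and 3.68 for IAGLU. With the overall size of a line's response removed, 1 gene was called (IAA16, permutation adjusted p 0.0417).

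Levels gave a different picture from changes. In the dark, IAGLU was called with 2 genes above 0 and 3 below, against 16.6% and 4.06% of all genes, and in the light with 4 above and 1 below, against 13.1% and 4.18%. IAA8 was the gene called in both, with r = -0.503 in the dark and -0.51 in the light (rho -0.457 and -0.491, permutation adjusted p 0.00103 and 0.000415). Lines with more IAA8 transcript had less IAGLU, and the values centred within ranges gave -0.42 and -0.458 (permutation adjusted p 0.0183 and 0.00507). The widest gap in IAA8 levels had 14 lines below it and 51 above it, and r on each side of it was not tested. IAA9 had r = 0.362 in the dark (rho 0.406, permutation adjusted p 0.0202 and 0.0122) and 0.342 within the ranges (permutation adjusted p 0.0484). IAA3 had r = -0.326 in the dark (rho -0.337, permutation adjusted p 0.0447 and 0.0415). Within the ranges it was -0.336 (permutation adjusted p 0.0598), and without the 2 lines farthest in IAGLU -0.347 (permutation adjusted p 0.0422). GH3.17 had r = 0.349 in the dark (rho 0.293, permutation adjusted p 0.0283 and 0.0827) and 0.257 within the ranges (permutation adjusted p 0.162). GH3.3 had r = 0.236 in the dark (rho 0.25, permutation adjusted p 0.16 and 0.146) and 0.124 without the 2 lines farthest in IAGLU (permutation adjusted p 0.54). Within the ranges it was 0.48 (permutation adjusted p 0.0041), so that lines of a range with more GH3.3 in the dark also had more IAGLU there. GH3.3 was called only within the ranges. In the light IAA2 had r = 0.615 (rho 0.672, permutation adjusted p 0.000415 and 0.000391), which within the ranges was 0.296 (permutation adjusted p 0.164). IAA7, IAA26 and GH3.5, called in the light, were not called within the ranges either. IAA13 was among the genes called in the dark, but its levels fall into a low and a high set of lines and no r is given.

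The same was then done for IAA3 and GH3.3, the Aux/IAA and the GH3 gene that fell most, a choice made after seeing the data. The change of IAA3 went with that of IAA4 (r = 0.669, rho 0.657), IAA2 (r = 0.635, rho 0.676) and GH3.5 (r = 0.585, rho 0.614), each with a permutation adjusted p of 0.00141 for r and 0.00147 for rho. IAA28 was the 4th gene called by r (0.348, permutation adjusted p 0.0496) but was not called by rho (0.348, permutation adjusted p 0.0539). GH3.6 was called by rho (0.374, permutation adjusted p 0.0365) but not by r (0.34, permutation adjusted p 0.0575). All 4 called by r had r above 0, as did 4.32% of all genes, with 4.54% called below 0. Within the ranges of line numbers IAA4 (0.579), IAA2 (0.55) and GH3.5 (0.45) were still called (permutation adjusted p 0.00584, 0.00584 and 0.0217) and IAA28 was not (r = 0.328, permutation adjusted p 0.144). Without the 2 lines farthest in IAA3 they were 0.617, 0.64 and 0.525. Lines in which IAA3 fell further were thus also lines in which IAA4, IAA2 and GH3.5 fell further. Unlike for IAGLU, the overall size of a line's response was not removed here, and its part was not tested. IAA3 and IAA4 are each other's closest copy, with 79.5% of coding bases shared over their aligned length. How shared reads were split therefore makes the r of this pair less certain.

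GH3.3, in contrast, was called with none of the 26 genes and with none of all 18110, which is 0% above and 0% below 0, by r or by rho. At an unadjusted p under 0.05, 6 of the 26 (r) and 5 (rho) passed, and 1826 and 1662 of all genes. Its r was -0.13 with IAA3, -0.00751 with IAA4, 0.262 with IAA2 and 0.372 with GH3.6. Whether the r of IAA3 with IAA4 differs from that of GH3.3 with IAA4 was not tested.

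**Figure D4:**
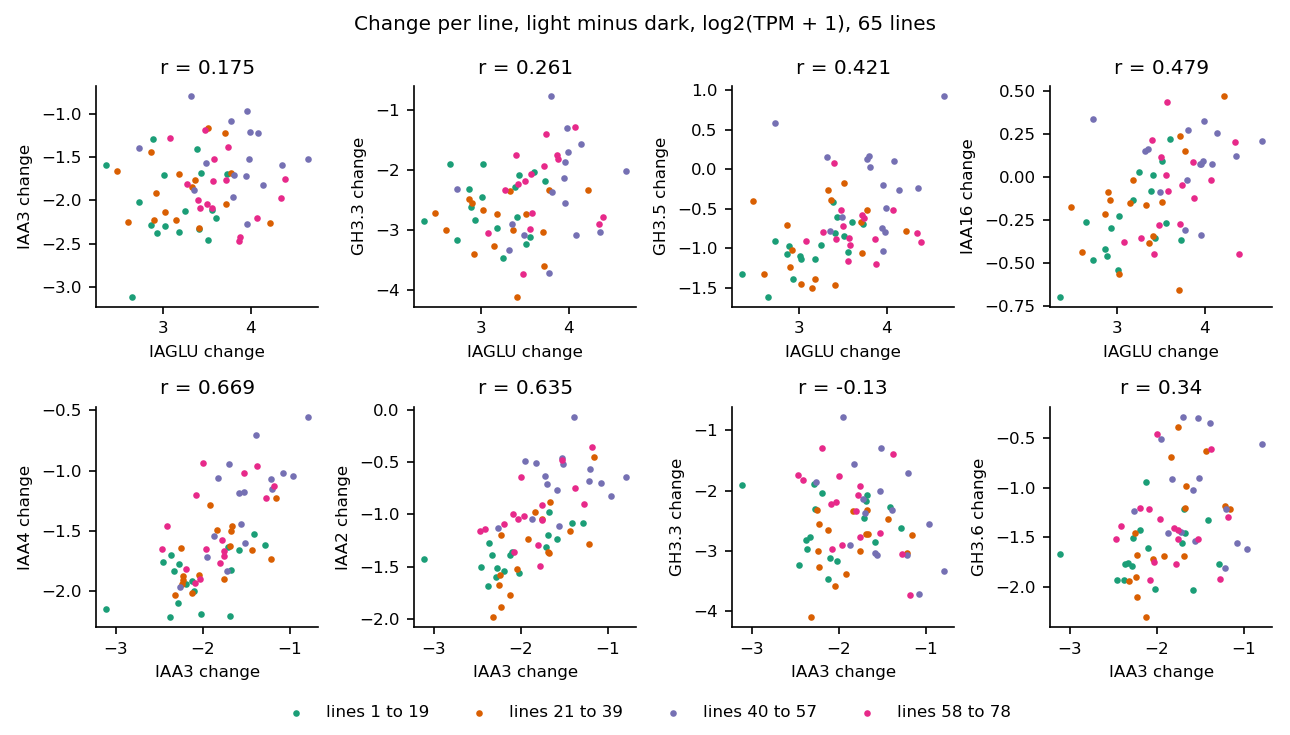
Change per line, light minus dark on the log2(TPM + 1) scale, of IAGLU (top row, horizontal axis) and of IAA3 (bottom row) against other genes (vertical axes), with 1 dot per line coloured by the range of its number and Pearson's r over 65 lines above each panel. The dots of IAA3 with IAA4 and IAA2 rise together (r 0.669 and 0.635), and those of IAGLU with IAA3 do not (r 0.175).

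Some genes outside the set had changes more like that of IAGLU than any gene in it. Among genes whose mean reached 5 TPM, the 5 highest r were those of AT4G01870 (0.721), DJ1A (AT3G14990, 0.713), ABCC8 (AT3G21250, 0.695), ABCC2 (AT2G34660, 0.672) and CYP81D11 (AT3G28740, 0.666), each over 65 lines with a permutation adjusted p of 0.00292. Their rho ran from 0.638 to 0.687. Centred within ranges, r was 0.62, 0.549, 0.638, 0.523 and 0.533, and without the 2 farthest lines 0.683, 0.664, 0.657, 0.617 and 0.641. ABCC2 and ABCC8 are transporters of the ABCC class, CYP81D11 is a cytochrome P450 and DJ1A a protein of the DJ-1 family. All 5 were called higher in the light, from a mean of 65.1 to 500.3 TPM for CYP81D11, 38.999 to 301 for AT4G01870, 14.6 to 44.5 for ABCC8, 40.6 to 88.2 for ABCC2 and 557 to 822 TPM for DJ1A.

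The rest of the pathway was read from fixed lists, in the order in which auxin is made, moved, sensed and inactivated. Against the shares over all tested genes, 36.1% higher and 25.5% lower, small counts near them say nothing of a list. A few listed genes reached the filter only through the condition in which they are high (YUC2, PIN6, SAUR19, SAUR22 and SAUR24), and their values are a description. Of 7 tested genes of synthesis (16 listed), 3 were higher and 1 lower, or 2 and 1 of 6 without YUC2, which is near those shares. TAA1, the aminotransferase that starts the main route to IAA, rose from a median of 7.52 to 23.5 TPM, in 65 lines (log2 change 1.501, SE 0.0831, limma adjusted p 7.43e-36), and CYP79B2, which acts in a side route through indole-3-acetaldoxime, had -0.67. YUC2, a flavin monooxygenase of the second step, had a mean of 0.724 TPM in the dark and 1.29 TPM in the light. Of 13 tested transport genes (15 listed), 4 were higher and 7 lower, or 3 and 7 of 12 without PIN6. PIN3, the efflux carrier that redistributes auxin sideways in bending hypocotyls, fell from 284 to 94.6 TPM in 65 lines (log2 change -1.56, SE 0.0628, limma adjusted p 2.93e-49), and PIN4 had -0.65. PIN6 had a mean of 0.968 TPM in the dark and 2.08 TPM in the light.

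All 6 receptor genes were tested, with 4 lower and 2 not called. AFB1 fell from a median of 49.9 to 24.3 TPM (log2 change -1.004, SE 0.0399, limma adjusted p 6.34e-50), TIR1 from 164 to 117 TPM (-0.49) and AFB2 from 62.4 to 45.5 TPM (-0.48), each in 65 of 65 lines. Of 15 tested ARF genes (23 listed), 10 were higher and 3 lower. ARF8 rose from 13.2 to 30.97 TPM (log2 change 1.19, SE 0.0555, limma adjusted p 4.89e-43), ARF11 by 0.88 and ARF4 by 0.56 log2 units.

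Among 11 tested genes of inactivation other than GH3 and IAGLU (13 listed), 5 were higher and 3 lower. UGT74D1, a glucosyltransferase that acts on IAA, rose from a median of 12.5 to 41.6 TPM (log2 change 1.67, SE 0.0592, limma adjusted p 3.57e-55), and UGT74E2, which acts on indole-3-butyric acid, from 23.8 to 142 TPM (2.07, SE 0.153, limma adjusted p 1.81e-25). Both rose in 65 lines, beside IAGLU. ILL6, of the family of amidohydrolases that release IAA from conjugates, fell from 28.7 to 9.46 TPM in 65 lines (-1.45). UGT74E2 has a neighbour with 89.5% identical coding bases, so its value is less certain. UGT84B1, a listed glucosyltransferase under the filter, was at 0 in 61 dark and 59 light libraries of the lines.

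Small auxin-up RNAs (SAURs) are rapid auxin targets that promote cell expansion. Of 10 tested SAUR genes (12 listed), 1 was higher and 7 lower, or 1 and 4 of 7 without the 3 named above. Log2 changes were -1.37 for SAUR21 and -1.07 for SAUR63, lower in 57 and 59 lines. SAUR22 had a mean of 3.56 TPM in the dark and 0.767 TPM in the light. The closest copies of SAUR21, SAUR22 and SAUR63 share 93.8%, 93.0% and 89.9% of coding bases, so single SAUR values are uncertain. Of the other GH3 genes, GH3.10 (also DFL2) fell by 0.997 log2 units, with 22.2 and 24.7 TPM in Tnz-1 (dark and light), and JAR1, which makes the active jasmonate conjugate, rose by 0.52. These lists gave the same counts under median-of-ratios scaling, apart from synthesis with 2 higher and 1 lower among 6 tested genes.

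**Figure D5:**
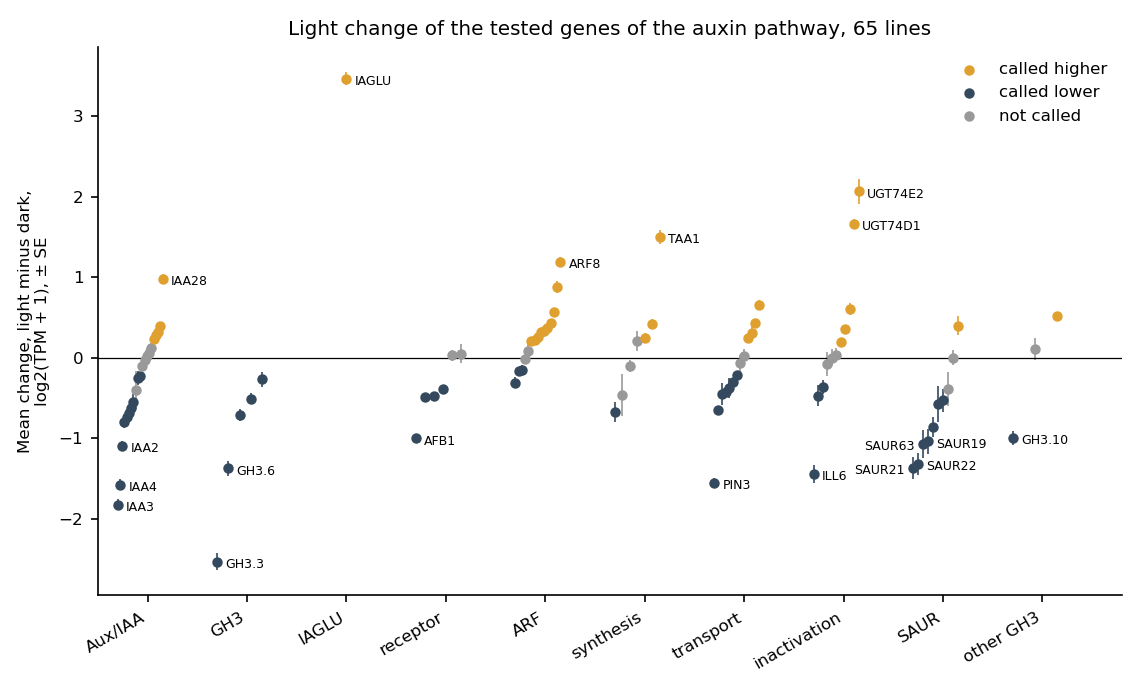
Mean change in extended light over 65 lines (vertical axis, log2(TPM + 1), with SE) of every tested gene in the Aux/IAA, GH3 and IAGLU set and in the other lists of the pathway, coloured by call; names are given from about 1 log2 unit on. IAGLU stands at 3.47 and GH3.3 at -2.54, and the 4 GH3 points other than GH3.2 lie below 0. GH3.2 reached the filter only through the dark group, and GH3.9, higher in the light but under the filter, is not drawn.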

How the data were processed

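Poly(A) RNA of whole seedlings was sequenced in 134 libraries, and the authors deposited 1 table of TPM for 28775 genes. Per the submitters' processing notes, cutadapt 3.4, Salmon 1.6.0, GATK and the TAIR10 build were used, and how shared reads were treated is not given in the sources used here. The depth is unknown. The analysis used log2(TPM + 1) with no further scaling, genes whose TPM averaged 1 or more in the 130 libraries of lines, limma 3.58.1 in R 4.3.3 with a mean-variance trend, and permutation tests in Python 3.11.15. Gene names and sequences came from RefSeq on TAIR10.1, which held all 38 genes, and copies from blastn 2.17.0 (E under 1e-10, at least 50% of the coding sequence covered). By label, both libraries of a number are the same inbred line, and their deviations from the group means correlated with r from 0.492 to 0.886 (median 0.772), against a median of -0.021 between lines. Each line has 1 library per condition. The main p-values of the light response rest on the spread between lines within a condition and leave out the pairing by line. With the line as a replicate block they rest on the spread of the change per line. The F-test sets differences between lines against the spread within a line. The genes named were all 38, with values per group for large changes, for IAGLU and for an ICC above 0.8, up to 3 called genes per pathway list with the largest change, and the 5 genes most like IAGLU. The genes, lists and rules were chosen with earlier results of these data known. The tests were run on simulated data with known answers first. The simulation of the light response gave the 2 libraries of a line no shared variance. It therefore cannot show how the test without the block behaves on these paired libraries.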

Additional observations from a re-analysis of the deposited data

Results flagged for a closer look

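Among the genes called in the lines, 5 changed in opposite directions in the parents, each from 1 library per condition, so the difference was not tested. For GH3.6 the Tnz-1 change exceeded the Ws-2 change by 1.196 log2 units (0.18 against -1.01), where all 65 lines fell. IAA32 differed by 0.53 (0.34 in Tnz-1 and -0.18 in Ws-2) and IAA9 by 0.11 (0.01 and -0.10). IAA8 differed by -0.31 (-0.17 in Tnz-1 and 0.14 in Ws-2) and GH3.2 by -0.28 (-0.13 and 0.14). Apart from GH3.6, these are small changes in the lines too, from -0.27 (GH3.2) to 0.24 (IAA8), and Tnz-1 went against the lines in 4 of the 5 and Ws-2 in GH3.2.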

How the results depend on the processing

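The large changes depended on the threshold and on genes near 1 log2 unit. With IAA28, 2 genes were higher by the large threshold in lines 21 to 39, 40 to 57 and 58 to 78 alone and with a pseudocount of 0.1, and with 0.5 log2 units as the threshold the counts were 2 higher and 12 lower. Large decreases numbered 4 in lines 40 to 57 and in lines 58 to 78 alone, where IAA2 had -0.68 and -0.98, and 6 with a pseudocount of 0.1, where IAA29 had -1.04. With the line as a replicate block, 17 genes were lower and 7 higher against 15 and 6, and the block changed no call other than those of IAA13, IAA16 and IAA17. Without the filter on low values 17 were lower and 8 higher, and in the 4 ranges of line numbers alone 10 to 17 were lower and 4 to 6 higher. Shares of all genes called in these settings are not given. The sign turned for IAA7 (0.23, lines 40 to 57), IAA11 (-0.10 in lines 1 to 19, -0.0559 in lines 21 to 39 and -0.0135 under median-of-ratios scaling), IAA16 (0.0904, lines 40 to 57) and IAA26 (-0.0916 in lines 1 to 19 and -0.0099 in lines 21 to 39), none of which was called. Leaving out line 48, the line with the smallest overall response in earlier results (chosen after seeing the data), changed no call. The count of genes whose change went with IAGLU was 4 under median-of-ratios scaling and 1 with the response size removed, against 2. It was 0 within the ranges and 0 without the 2 farthest lines, where 22 and 194 of all 18110 genes were called. For dark levels it was 1, 3 and 3 (scaling, ranges, farthest lines) against 5, and for light levels 1 within the ranges against 5, where the r of IAA7 turned to -0.0886. For IAA3 it was 3 within the ranges and 6 without the 2 farthest lines, against 4. The causes were not tested. The line effect was called in 21 to 24 genes. With depth unknown, no limit from counting error can be given, and levels under 1 TPM were not tested.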

Other observations

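The change of IAGLU in a line was weakly related to the overall size of that line's light response over other strongly responding genes, with r = -0.264 and rho = -0.359 over 65 lines (permutation p 0.0336 and 0.00332, 1 relation). Without the 2 lines farthest in IAGLU r was -0.222 (permutation p 0.0785), and within the ranges of line numbers it was 0.198 (permutation p 0.126), so the relation did not hold there.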
